A study of Homo sapiens with 96 samples.

Results

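LINC02109 is a long non-coding RNA (lncRNA) gene on the plus strand of chromosome 5, and the sites described here are all listed A-to-I editing sites on that strand between the start and the end of the gene (ENSG00000259786.7, 408 kb) on GRCh38. They number 22 of the 4149 sites that the authors listed in K562, a human cell line grown from a chronic myeloid leukemia. Of these 22 sites, 21 belong to the unannotated class, that is, they were absent from the public editing databases the authors used, and 20 of the 38 listed unannotated sites in lncRNA introns lie in this gene. The gene was chosen by that count of listed sites and their levels, so these are given as a description. The list gives an editing level for each site and sample, which is the fraction of reads with G instead of A. A site is called found in a sample when its level is above 0, and a level of 0 cannot be told apart from a lack of reads.

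The levels cover 96 RNA-seq samples made from total RNA, of which 80 are from K562 itself and 16 from its derivatives. The samples from K562 comprise a time course of imatinib, etoposide, romidepsin or DMSO (20 samples, 6 to 48 h), 6 h of DMSO, talazoparib, SN-38, etoposide or cyclophosphamide followed by 0 to 6 h of actinomycin D (19), alpha-amanitin for 2 or 6 h, or for 0 to 6 h after 6 h of DMSO or etoposide, with a DMSO sample (11), 3 h of DMSO or of AZ-20, KU-60019 and NU7441 together before talazoparib, SN-38, etoposide, mirin or DMSO (10), wash-out after DMSO, SN-38 or etoposide (9), actinomycin D alone with DMSO and an untreated sample (5), rapamycin or Torin1 (4) and romidepsin for 3 or 6 h (2). The derivative lines carried Cas9, LINE or AsiSI overexpression or shRNA against CSB, LIG3 or MRE11A, and each received doxycycline or water (8 and 8 samples). Most conditions have only 1 sample, nothing in the labels tells whether samples came from separate cultures, and p-values therefore measure only the spread between these samples. The number of all listed sites found per sample, used here as the measure of how much was detected, ran from 30 to 633 with a median of 236. It is not the sequencing depth, and read numbers per sample were not used.

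ADAR enzymes deaminate adenosine to inosine in double-stranded RNA, and sequencing reads inosine as G. Such duplexes form when a transcript carries a sequence and its inverted copy at a short distance, which happens most often between Alu repeats of opposite orientation in introns and other non-coding stretches. ADARs act poorly on an adenosine preceded by G and prefer U or A in that place. Long nuclear RNAs that are spliced rarely or not at all keep their introns and with them such inverted copies.

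All 22 sites lie in an intron. GENCODE release 44 gives the gene 14 transcripts, but only ENST00000658190.1 spans the sites, and they fall in its only intron, at 28810149 to 29162415. The other 13 transcripts begin at 29143467 or later, 177 kb beyond the last site. The sites spread over 88.7 kb, and no other annotated gene of either strand contains any of them. The list itself calls 21 of them lncRNA intron and 1, at 28966314, vlincRNA (very long intergenic non-coding RNA). No listed site lies on the minus strand of the same interval, and the nearest listed sites outside the gene are 9717 kb upstream and 3215 kb downstream.

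The 22 sites formed 5 clusters when sites within 100 bases were joined, and 21 of them lay in the arms of 2 inverted repeats. Cluster 1 has 8 sites at 28877600 to 28877635, cluster 2 has 8 sites at 28877978 to 28878047, cluster 3 is the annotated site 28914667, cluster 4 has 4 sites at 28915949 to 28916014, and cluster 5 is the site 28966314. The arms are shown because they hold these sites and are complementary to each other; edited adenosines are in capitals, and all sequences are the plus strand of GRCh38, 5′ to 3′.
Arm with cluster 1, chr5:28877571-28877673: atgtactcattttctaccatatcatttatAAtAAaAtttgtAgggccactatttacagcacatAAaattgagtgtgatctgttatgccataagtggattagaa
Arm with cluster 2, chr5:28877973-28878075: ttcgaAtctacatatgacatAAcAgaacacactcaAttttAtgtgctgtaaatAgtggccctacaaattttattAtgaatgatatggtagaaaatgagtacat
Arm with cluster 3, chr5:28914591-28914718: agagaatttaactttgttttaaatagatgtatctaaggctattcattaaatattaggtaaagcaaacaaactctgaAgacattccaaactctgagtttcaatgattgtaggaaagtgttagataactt
Arm with cluster 4, chr5:28915944-28916071: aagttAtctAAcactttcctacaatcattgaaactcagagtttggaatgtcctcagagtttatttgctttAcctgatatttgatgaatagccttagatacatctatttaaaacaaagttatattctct
Window around cluster 5, chr5:28966264-28966364: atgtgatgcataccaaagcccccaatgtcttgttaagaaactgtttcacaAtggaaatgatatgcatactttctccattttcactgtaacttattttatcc

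The arm with cluster 1 matched the reverse complement of the arm with cluster 2 over 103 bases without a gap and with 6 mismatches (94.2% identity), and 299 bases separate them. The arms with clusters 3 and 4 matched over 128 bases without a gap and with 5 mismatches (96.1% identity), at a distance of 1225 bases. A search of all assembled chromosomes found each arm at 1 other place, its own partner, when a match had to cover 50% of the arm or more. The arms are thus a pair of single-copy inverted repeats and not members of a dispersed family such as Alu, whose sites the authors had removed from the list along with all other annotated repeats. The arms of the different pairs shared at most 22 bases of alignment with each other. The window around cluster 5 had no complementary segment within 10 kb and no other place in the genome.

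Complementary segments as such were frequent in this list, and segments as long and as alike as these were less so. In a window of 150 bases either side of the cluster's center, with a length of at least 40 bases and an identity of at least 75%, 4 of the 5 clusters had a partner within 10 kb, against 71.4% of 2136 other listed clusters, 70.5% of 78 other clusters in lncRNA introns, 78.1% of 169 in vlincRNAs, 87.2% of 399 with 3 or more sites and 14.5% of 1354 tiles of the gene itself. With at least 90 bases and 90% identity, a limit chosen after the alignments had been seen, the same 4 clusters had a partner, against 7.72% of the other listed clusters, 5.13% of those in lncRNA introns, 14.8% of those in vlincRNAs, 12.3% of those with 3 or more sites and 0.443% of the tiles. Of the 6 tiles past that limit, 3 overlapped the 4 arms. Tiles lay on a fixed grid that could cut a segment, whereas the windows of clusters were centered on the sites. The shares of tiles can therefore be too low beside those of clusters. Clusters 1 and 2 are each other's partner, as are clusters 3 and 4, so the 4 clusters with a partner stand for 2 inverted repeats.

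A predicted fold placed nearly all sites in a duplex between the arms. The folded segments ran from just before the first arm to just after the second. The arms had been picked as complementary, so their pairing was built into this choice. RNAfold joined the arms with clusters 1 and 2 by 99 base pairs in a segment of 605 bases (minimum free energy −218 kcal/mol), and it joined those with clusters 3 and 4 by 125 base pairs in a segment of 1581 bases (−469 kcal/mol). In these folds 16 of 16 sites of clusters 1 and 2 and 4 of 5 sites of clusters 3 and 4 were paired, each with the base that the alignment puts opposite. Of the other adenosines in the arms, 52 of 58 and 84 of 85 were paired, so pairing did not set the listed sites apart. The exception was 28914667, where the arms differ. Counted from the 5′ end of the arm with cluster 3, with the base of that arm first and the base of the inverted copy, read as its reverse complement, last, the difference is A77G, so at this annotated site the copy carries the base that editing would give. The other 20 sites in the arms lie at none of the 11 differences between the copies.

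**Figure D1:**
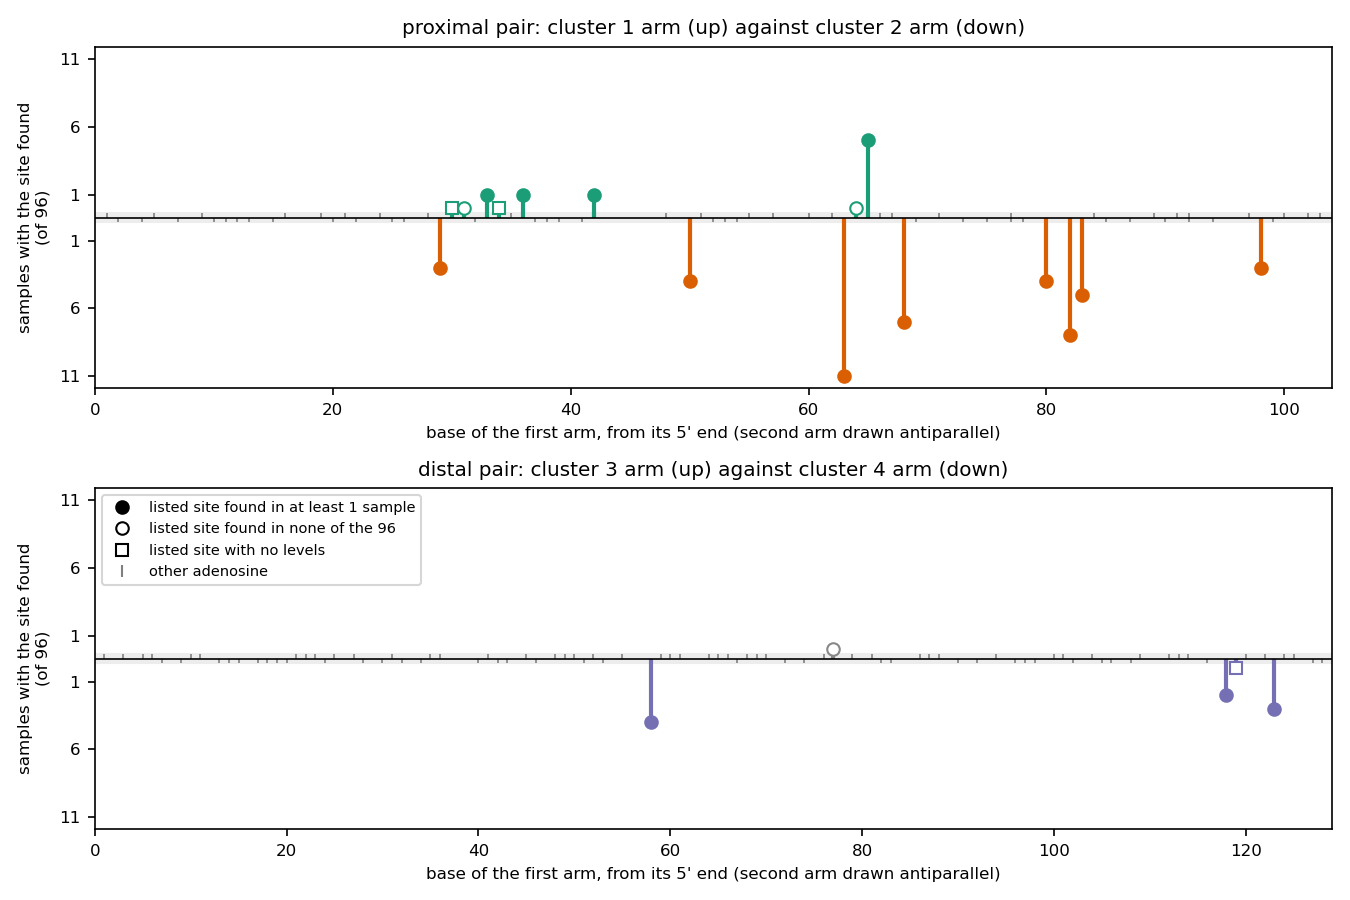
Listed sites along the paired arms. The x axis is the base of the first arm from its 5′ end, with the second arm drawn antiparallel below the line, and the height is the number of the 96 samples in which a site was found; grey ticks are the other adenosines. Sites of cluster 2 reach 11 samples and those of cluster 1 reach 5, while cluster 4 reaches 4 and the site of cluster 3 was found in none.

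The base before the edited adenosine was T at 11 of the 22 sites (50%), A at 10 (45.5%), C at 1 (4.55%) and G at none. Over all 4149 listed sites it was T at 49.0%, A at 34.1%, C at 13.1% and G at 3.83%, whereas over the 129309 adenosines of the plus strand of the gene it was T at 26.5% and G at 17.2%. The same contrast held inside the arms, where G preceded 29 of the 143 adenosines that were not listed (20.3%) and 0 of the 21 listed ones, and T preceded 28.0% and 52.4%. The base after the site was G at 18.2% of the 22 sites, near the 19.5% of all adenosines of the gene and below the 43.9% of all listed sites. These shares are descriptions, since neighboring sites share a sequence.

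Levels were given for 19 of the 22 sites, because 28877600, 28877604 and 28915953 are listed by Sanger sequencing only. Of the 19, 16 were found in the 96 samples, and 28877601, 28877634 and 28914667 were not. The authors' filters also covered samples outside the 96, so a site not found here can still have been detected by RNA-seq in those. All counts per site cover the 96 samples only. There were 69 levels above 0 in all, in 31 of the 96 samples. They were few per site, with a median of 3 samples per site (quartiles 1 and 5), as over all 4092 listed sites with levels (3, quartiles 2 and 6), and the median level was 0.330 against 0.333. SPRINT, one of the tools used by the authors, had detected 17 of the 19 sites (89.5%), against 51.7% of all listed sites with levels 62.2% of other sites in lncRNA introns and 11 of 11 (100%) of the other unannotated ones among these. Per the study's methods, the tools that detected a site entered the selection of unannotated sites, so these shares are no trait of the gene. All of REDItools, RED-ML and SPRINT had detected 10 of the 19 (52.6%), against 25% of all and 23.8% of other lncRNA intron sites. Clusters of 3 or more held 20 of the 22 sites (90.9%), against 50% of all listed sites.

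Cluster 2 carried most of the signal, with 45 of the 69 levels in 23 samples. Its levels ran from 0.0435 to 0.750 with a median of 0.238. The site 28878013 was found more often than any other of the gene, in 11 samples, with a lowest level of 0.0714, a median of 0.279 and a highest of 0.60. It was followed by 28877994 in 8 samples (0.164 to 0.500, median 0.291) and 28878008 in 7 samples (0.0455 to 0.60, median 0.333). At 28877993 the 5 levels were 0.0769, 0.154, 0.20, 0.500 and 0.750, the widest spread within the cluster. The other sites of the cluster, 28877978, 28877996, 28878026 and 28878047, were found in 3 or 4 samples each, and the median of the last was 0.0625. In 14 of the 23 samples a single site of the cluster was found, in 9 there were 2 or more, and in imatinib at 24 h there were 7 of the 8.

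Cluster 1, in the opposite arm, was found in 8 samples, always with a single site. Of its 8 levels 5 belong to 28877635, which was at 0.333 in Torin1 at 3 h, 0.429 after cyclophosphamide with 0 h of actinomycin D and 0.750 in imatinib at 48 h, in DMSO with 0 h of alpha-amanitin and in the DMSO sample of 2 h of the alpha-amanitin set. The other levels were 0.60 at 28877603, 0.500 at 28877612 and 0.120 at 28877606, in 1 sample each. The median over the cluster was 0.550, above the 0.238 of cluster 2, but the ranges overlap almost fully. In 6 of the 8 samples with a site of cluster 1 a site of cluster 2 was found too.

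Cluster 4 gave 9 levels in 6 samples, from 0.0323 to 0.500 with a median of 0.281. The site 28916014 was found in 4 samples at 0.0909, 0.281, 0.429 and 0.444, 28915949 in 3 at 0.0323, 0.0909 and 0.500, and 28915954 in 2 at 0.0957 and 0.500. Rapamycin at 3 h was the only sample with all 3 of them. In 4 of the 6 samples cluster 2, 37.9 kb away, was found as well. The levels of cluster 5, a single site, were closer together than those of the other clusters. Among single sites this was no exception, since 28878047 of cluster 2 ran only from 0.0435 to 0.265. The 7 levels of 28966314 were 0.301 in the untreated sample, 0.444 in DMSO at 24 h, 0.475 in alpha-amanitin at 2 h, 0.500 in alpha-amanitin at 6 h and in the DMSO sample of 2 h of the same set, and 0.571 in DMSO at 12 h and imatinib at 6 h. Clusters 1 to 4 were found in 3 of these 7 samples.

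**Figure D2:**
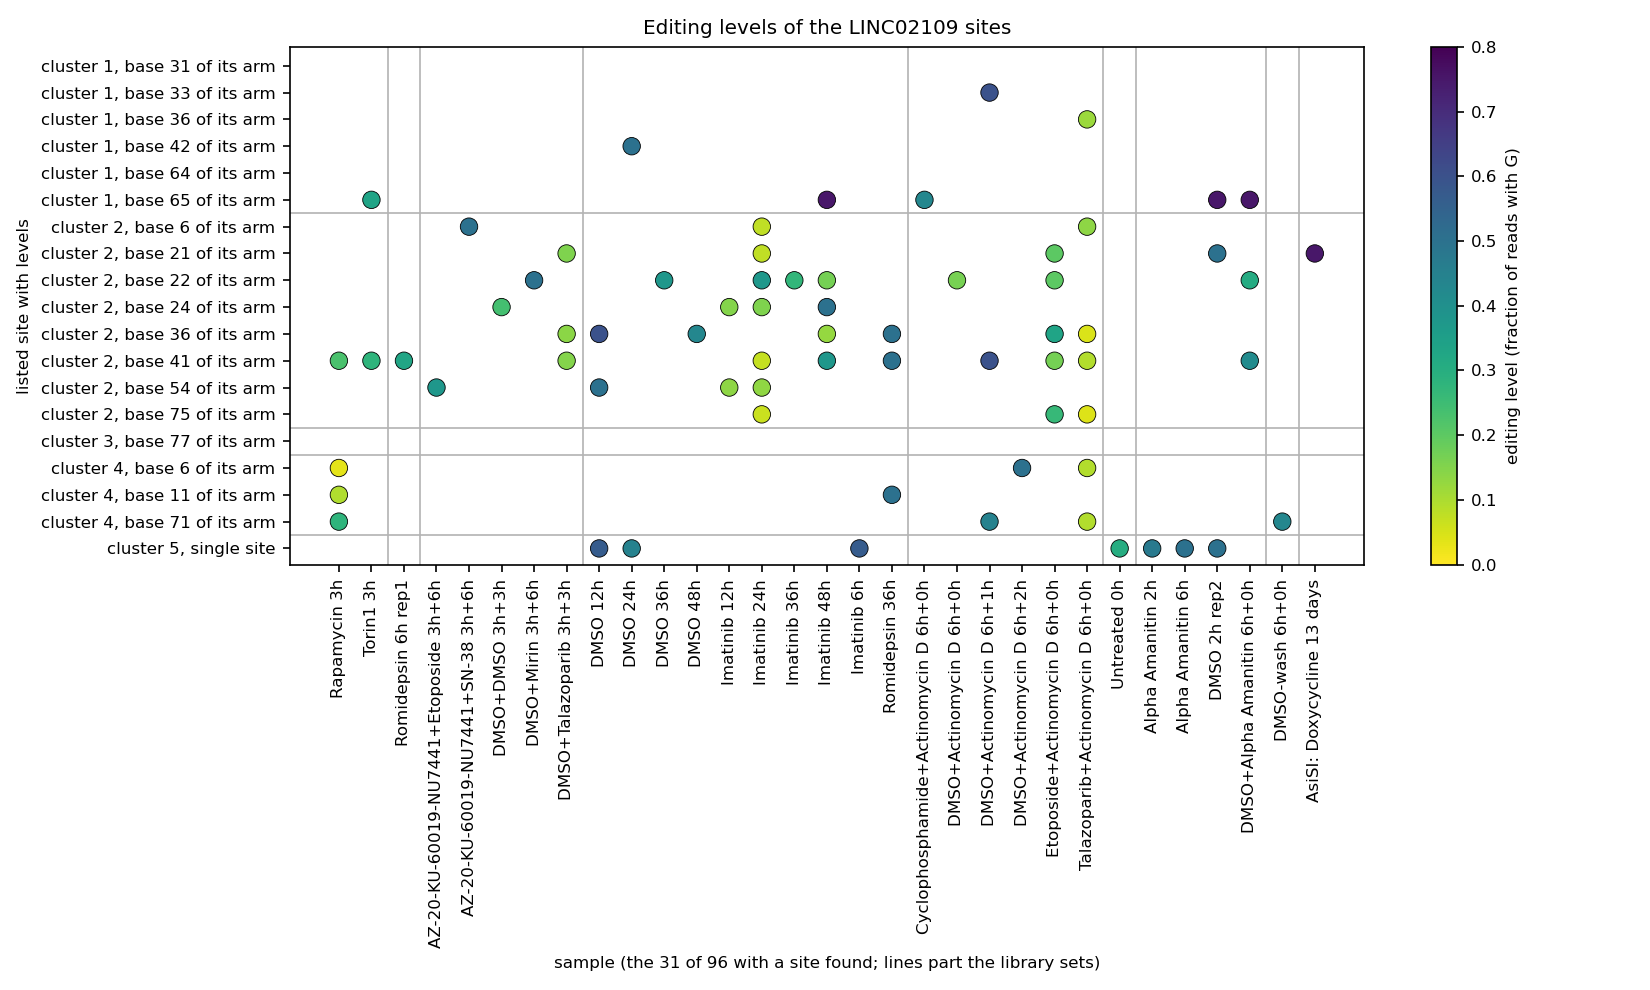
Editing level (fraction, color) of the 19 sites with levels in the 31 samples in which any was found, by library set; an empty place means that no level was recorded. Imatinib at 24 h and talazoparib with 0 h of actinomycin D show 7 sites each, mostly at low levels, while samples with a single site range from 0.164 to 0.750.

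Most samples had no site of the gene. The number of sites found was 0 in 65 samples, 1 in 17, 2 in 3, 3 in 6, 4 in 1, 5 in 2 and 7 in 2. The 2 samples with 7 were imatinib at 24 h, all in cluster 2 at 0.0625 to 0.374, and talazoparib with 0 h of actinomycin D, spread over clusters 1, 2 and 4 at 0.0435 to 0.135. Etoposide with 0 h of actinomycin D had 5 sites at 0.167 to 0.333, imatinib at 48 h had 5 at 0.125 to 0.750, and rapamycin at 3 h had 4 at 0.0323 to 0.281. Without the 2 samples with 7 sites, 55 levels in 29 samples were left. The derivative lines had 1 site in 1 of 16 samples, 28877993 at 0.750 in the AsiSI line after 13 days of doxycycline, but they also had few other listed sites, with a median of 62.5 against 259.5 in the 80 samples of K562. The number of other listed sites found did not order the samples throughout. DMSO at 48 h had the most (632) and 1 site of the gene, and rapamycin at 3 h had 185 and 4.

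**Figure D3:**
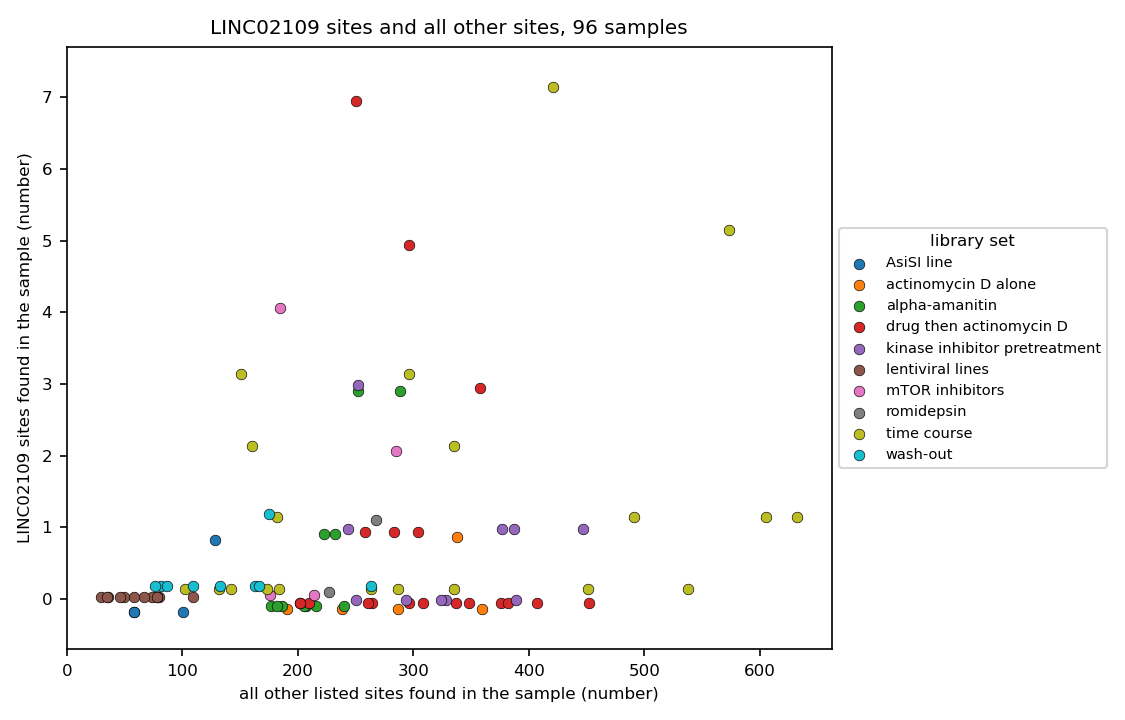
Number of LINC02109 sites found in each of the 96 samples against the number of all other listed sites found there, colored by library set and shifted slightly apart on the y axis. The samples with 4 to 7 sites lie between 185 and 573 other sites. The set labeled lentiviral lines, which leaves out the AsiSI line, is all at 0 and lies between 30 and 109.

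Actinomycin D intercalates into DNA and stops transcription. At 0 h, 4 of 5 samples had a site of the gene, with 1 after DMSO, 7 after talazoparib, 0 after SN-38, 5 after etoposide and 1 after cyclophosphamide. At 1 to 6 h, 2 of 14 samples had one, namely DMSO at 1 h with 3 sites (28877603 and 28878013 at 0.60, 28916014 at 0.444) and DMSO at 2 h with 1 (28915949 at 0.500), while all samples at 4 and 6 h and all samples pretreated with a drug had none. As a share of the 19 sites in each sample this was 14.7% at 0 h and 1.5% later, whereas over all 4092 sites it was 7.03% and 7.64%. Without the talazoparib sample 7 of the 14 levels at 0 h were left, in 3 of 4 samples. In other sets, etoposide for 6 h gave 0 sites with 0 h of alpha-amanitin, right after wash-out and following 3 h of DMSO. DMSO for 6 h gave 3, 1 and 0 sites there, and 0 in the time course and in the set of actinomycin D alone. Of the 10 sites of the gene found at 0 h, 7 were not found later, and of all 909 listed sites found at 0 h 409 were not (45.0%). The other listed sites found per sample had a median of 283 at 0 h and 306 later. The list holds no RNA levels, so fewer reads from the gene and less editing of it cannot be told apart.

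The test per site reached few of them. Fisher's exact test of the samples in which a site was found, two-sided and adjusted by the Benjamini-Hochberg method, was run over the 686 listed sites found in at least 3 of the 19 samples, and it called 18 of them (2.62%), 16 less often after actinomycin D (2.33%). Only 1 site of the gene entered, 28878013, found in 2 of 5 samples at 0 h and 1 of 14 later (exact p = 0.155, adjusted p = 0.610), and it was not called. The smallest p the test could give this site was 0.0103. With 86 of the 686 sites at an unadjusted p under 0.05, that would not have passed the adjustment, so the test could not have called it. With 1 value per cluster, 450 clusters were tested, of which 2.89% were called. Cluster 2 was found in 3 of 5 and 1 of 14 samples (exact p = 0.0374, adjusted p = 0.304). Cluster 1 was found in 2 of 5 and 1 of 14 samples (exact p = 0.155, adjusted p = 0.562). Cluster 4 was found in 1 of 5 and 2 of 14 samples, a difference in share of only -0.0571. The smallest p the test could give clusters 1 and 4 was 0.0103. No cluster of the gene passed. Within first treatment 0 of the 686 sites were called. Each first treatment has only 1 sample at 0 h, which limits how small the p of that test can be. Leaving out 1 sample of 0 h at a time left 5 to 9 sites called. In the set with actinomycin D alone, no site of the gene was found after 2 or 6 h or in DMSO, and the untreated sample had only 28966314.

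Alpha-amanitin inhibits RNA polymerase II. Without it, or at 0 h, 2 of 3 samples had sites of the gene, 3 in the DMSO sample of 2 h and 3 in DMSO at 0 h, and the etoposide sample at 0 h had none. With it, 2 of 8 samples had a site, in both cases 28966314. Clusters 1 and 2 were each found in 2 of 3 samples without and in 0 of 8 with alpha-amanitin, and both rest on the same 2 samples. They fell under the minimum of 3 samples and were left out of the adjusted test. Fisher's exact test without that minimum gave each an unadjusted p of 0.0545, the smallest it could give them. Of the 5 sites found without alpha-amanitin 4 were not found with it, against 41.4% of 565 listed sites. The other listed sites found had a median of 252 without and 211.5 with it. Fisher's exact test called 0 of 269 sites (0%), with 2 at an unadjusted p under 0.05, and 28966314, the 1 site of the gene tested, was found in 1 of 3 and 2 of 8 samples (exact p = 1.00, adjusted p = 1.00). The smallest p the test could give this site was 0.00606, which would not have passed the adjustment over 269 sites, so the test could not have called it.

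**Figure D4:**
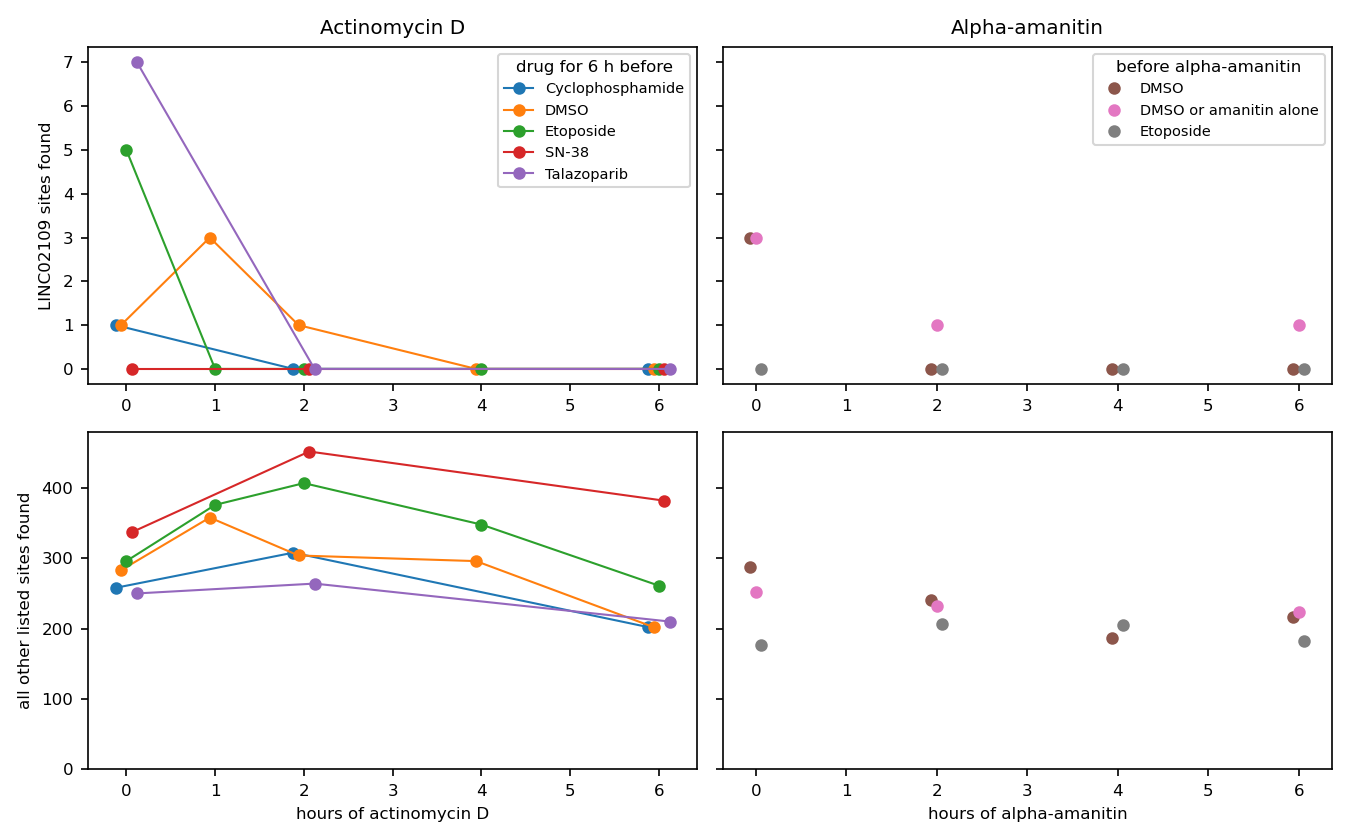
LINC02109 sites found (top) and all other listed sites found (bottom) per sample against hours of actinomycin D (left, lines join samples with the same drug before) or alpha-amanitin (right); points are shifted slightly apart on the x axis. With actinomycin D the top values fall from as many as 7 at 0 h to 0 at 4 and 6 h, while the other sites stay between 202 and 452.

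In the time course, imatinib, an inhibitor of the BCR-ABL kinase of K562, was the only drug name with a site of the gene in all 5 of its samples: 1 at 6 h, 2 at 12 h, 7 at 24 h, 1 at 36 h and 5 at 48 h. In DMSO the numbers were 0, 3, 2, 1 and 1 at the same times, so the ranges overlapped. The imatinib samples held 16 levels and the DMSO samples 7, and without the sample of 24 h imatinib had 9 in 4 samples. The other listed sites found had a median of 421 with imatinib and 335 with DMSO. As a share of all sites found, those of the gene were 0.818% with imatinib, 0.589% without its sample of 24 h, and 0.391% with DMSO. The samples named etoposide had none in 5, and those named romidepsin had 3 sites in the sample of 36 h, all at 0.500, and none in the other 4; the names of these drugs conflict between the list and the study's Sanger sequencing records, so the assignment of these samples is uncertain. Imatinib was not tested against DMSO.

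By culture time, 3 of 8 samples at 6 and 12 h and 5 of 8 at 36 and 48 h had a site of the gene, with 6 and 11 levels. Listed sites in general were found far more often late, with a median of 155.5 other sites early and 514.5 late, and as a share of all sites found those of the gene were 0.487% and 0.280%. Fisher's exact test called 0 of 650 sites (0%), with 125 at an unadjusted p under 0.05, of which 121 were more often found late. It called 20 of 469 with 1 value per cluster, 12 of 419 with a level above 0.2, 5 of 100 among unannotated sites alone and 16 of 803 with 24 h counted as early, and none of these was of the gene. Among the sites of the gene 28877994 was found in 0 and 3 of 8 samples (exact p = 0.20, adjusted p = 0.340) and 28878008 in 1 and 3 of 8 (exact p = 0.569, adjusted p = 0.777). With so few samples the smallest p these sites could give was 0.20 and 0.0769, so the test could not have called them.

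Etoposide, an inhibitor of topoisomerase II, was compared with DMSO in 13 pairs of samples of the same set and time outside the time course. Sites of the gene were found in 5 of the 13 DMSO samples, with 9 levels, and in 1 of the 13 etoposide samples, with 5 levels. That etoposide sample was the one with 0 h of actinomycin D. As a share of the 19 sites in each sample, the levels were 3.64% with DMSO and 2.02% with etoposide. Over all 4092 sites the shares were 5.79% and 5.82%. The exact paired (McNemar) test called 0 of 686 sites (0%), with 24 at an unadjusted p under 0.05, and Fisher's exact test without pairing called 0 as well. For the sites of the gene, 28877994 and 28878013 were each found in 2 DMSO and 1 etoposide samples (exact p = 1.00, adjusted p = 1.00). The smallest p this test could give them was 1.00 and 0.25, so it could not have called them. Doxycycline could not be compared for this gene, because the derivative lines had 1 level in all. There Fisher's exact test called 0 of 106 sites (0%), with 0 at an unadjusted p under 0.05, and no site of the gene was found in 3 samples.

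In the smaller sets, the sites were found in 5 of 10 samples of the kinase inhibitor set, all of them in cluster 2. DMSO then talazoparib had 3 sites at 0.140 to 0.154, and 1 site each was found after DMSO then DMSO at 3 h (0.238), DMSO then mirin (0.500), and AZ-20, KU-60019 and NU7441 before SN-38 (0.500) or etoposide (0.375). With mTOR inhibitors, rapamycin and Torin1 had 4 and 2 sites at 3 h and none at 6 h. After wash-out 1 of 9 samples had a site, 28916014 at 0.429 right after DMSO. Romidepsin at 6 h had 28878013 at 0.330 and romidepsin at 3 h had none.

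Among 232 other genes with at least 5 listed sites with levels, the genes whose number of sites found per sample was most like that of LINC02109 were LINC00534 (Spearman's rho 0.511 over the 96 samples), MGC4859 (0.489) and ENSG00000286251 (0.466), closely followed by the protein-coding STXBP5 (0.464). LINC00534 has 24 sites with levels and was found in 56 samples, 27 of them with a site of LINC02109, MGC4859 has 6 sites and was found in 35, 22 of them shared, and ENSG00000286251 has 13 sites and was found in 26, 18 of them shared. The median rho over the 232 genes was 0.130, and the rho with the number of all other listed sites found was 0.350. These values are descriptions, because the samples of a set share their treatment and all counts of a sample depend on how much was detected in it.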

How the data were processed

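The authors sequenced rRNA-depleted, strand-specific libraries of total RNA. Per the study's methods and the submitters' processing notes, reads were aligned to GRCh38 with TopHat2 2.1.1, duplicates were removed with Picard 2.0.1 (SAMtools 1.9 was also used), and sites were called per sample by REDItools, RED-ML and SPRINT. The deposited values are editing levels as a fraction, averaged by the authors over the tools that detected a site in a sample. The authors removed common and K562 variants, annotated repeats and regions of low uniqueness, and required detection in 2 or more samples and a level above 0.2 in some sample, so the list cannot show what these filters removed, and levels of sites in samples of low depth are missing. Read counts per site are not in the table, so single levels carry no interval. Sites marked as listed by Sanger sequencing only have no levels. The study also drew on 34 samples from earlier publications of its authors. A further 34 columns of values were not used here.

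The sites were chosen by position, and the sites, lists and comparisons were set with earlier results of these data known. Library sets were read from the study's internal identifiers; the untreated sample was matched by its group name. Detection (level above 0) was compared between arms that join conditions, because nearly every condition has 1 sample. Every listed site found in at least 3 samples of a comparison was tested by Fisher's exact test, or by the exact paired test for etoposide, and p-values were adjusted over all of them at 0.05; rows of LINC02109 were then read out. The named sites were all sites of the gene, and the genes most like it were the 3 with the highest rho. The tests and the search were tested on simulated data. The alternatives were a level above 0.2, no minimum of samples, 1 site per cluster, 1 class of sites, strata, other times, leaving out single samples, other joining distances, windows and identities.

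Sequences were read from GRCh38 and transcripts from GENCODE 44. Complementary segments were searched with blastn 2.17.0 (word size 7, opposite strand, 10 kb either side, at least 40 bases and 75% identity) and folds with RNAfold 2.7.2. Python 3.11.15, SciPy 1.17.1, pandas 2.3.3 and pysam 0.24.0 were used.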

Additional observations from a re-analysis of the deposited data

Results flagged for a closer look

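Of 15 groups of 4 to 10 samples, 6 held a sample whose number of LINC02109 sites found stood apart from the rest by Dixon's ratio. Chance flags about 1 in 20 groups of continuous values, a rate that does not hold for counts that are mostly 0, where a single find is enough. They were the AsiSI line at 13 days of doxycycline, with 1 site against 0 in the other samples of its line and again in the doxycycline arm, the untreated sample with 1 against 0 in its set of 5, DMSO then talazoparib with 3 against at most 1 in its set of 10, DMSO right after wash-out with 1 against 0 in its set of 9, and the sample named romidepsin at 36 h with 3 against 0 in the other 4.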

How the results depend on the processing

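No paired analysis was possible because the arms compared share no replicate numbers in the labels, so none was made by replicate number; the etoposide test paired samples by set and time instead, and other alternatives were stratified by first treatment, drug name or line. The number of LINC02109 sites called was 0 in all 42 alternatives run. In some of them no site of the gene met the minimum of samples, so this says little about stability. All 29 alternative values of single sites kept their direction, but settings that kept the same samples and detection level could not change these values. Counts over all listed sites moved more. The 18 sites called with actinomycin D became 8 with a level above 0.2, 5 with no minimum of samples, and 0 among unannotated sites alone, within first treatment, and within first treatment at 2 to 6 h, the last added after the data had been seen. Leaving out 1 sample of 0 h at a time gave 5 to 9. The 0 sites called by culture time became 12 with a level above 0.2, 20 with 1 site per cluster, 5 among unannotated sites alone and 16 with 24 h counted as early. The cause of these changes was not tested. With 1 sample of 0 h per first treatment, the tests within first treatment had little room to call any site. The levels at 0 h of actinomycin D (14) and in imatinib (16) rested in part on a single sample each, talazoparib and 24 h, without which 7 and 9 were left. Joining sites within 50 or 1000 bases gave 6 or 4 clusters in place of 5, and windows of 300 bases either side gave cluster 5 a partner segment that did not contain its site. Depth limits all counts: with no reads per site, absence of a level is not absence of editing.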
